A study of Mus musculus with 72 samples.

Results

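Retinoic acid (RA) raised the RNA of a small set of genes in every mouse leukaemia of this series, and 10 of those genes are described here. They are Acpp, Adgre5, Adssl1, Aifm2, Alkbh7, Arid3a, Bet1l, Cass4, Cd300a and Cdc42bpg. Each was chosen by its measured values, as rising in all 8 RA comparisons that the design allows. The threshold of that choice is not given here. In the fits used here, each was called higher with RA than without in all 8. A call means a Benjamini-Hochberg adjusted p below 0.05 over 19938 genes. Of the 19938 genes with 1 gene symbol, 61 passed in all 8 comparisons (0.306%), and the 10 are among the first of these 61 in alphabetical order, so they stand for no pathway. The 8 RA effects therefore describe these genes and are not tested here.

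Bone marrow RNA was taken from mice that carried acute promyelocytic leukaemia, and 72 Affymetrix Mouse Gene 1.0 ST arrays fell into 16 groups of 2 to 8 arrays. In the transgenic model (36 arrays) the leukaemia carried PML/RARA or PLZF/RARA on a wild type Pml background. In the viral transduction model (36 arrays) it carried PML/RARA, on a wild type background or on one labelled pml-/-, which is called Pml null below. Every kind of leukaemia was sampled untreated and with RA, each at 6 h and 12 h, and every group carried a RARA fusion, so no normal marrow was included. The promoter of the transgene, the RA dose and the number of animals or leukaemias behind a group were not found in the labels. Each p-value below therefore reflects only array-to-array spread, which may be technical. By the labels, batches 1 and 2 were transgenic and batches 3 and 4 viral. All values are the authors' log2 levels.

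Retinoic acid binds the retinoic acid receptors, which sit on DNA as dimers with retinoid X receptors and switch from repressing to activating nearby genes when the ligand arrives. In acute promyelocytic leukaemia a chromosome translocation fuses RARA to another protein, most often PML, and the fusion keeps RARA target genes silent in promyelocytes. Pharmacological RA releases PML/RARA from repression and leads to its degradation, while PLZF/RARA leukaemia is known for a poor clinical response to RA. The PML protein builds nuclear bodies, which PML/RARA disperses.

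The labelled tissue was checked against its markers. The mean log2 level of 6 promyelocyte and progenitor markers (Mpo, Elane, Prtn3, Ctsg, Kit and Cd34) ran from 11.56 to 12.36 over the 72 arrays, against array medians of 6.56 to 6.81. Normal marrow was not measured, so this level does not tell leukaemia from normal marrow. The known RA target Cyp26a1, which encodes the enzyme that oxidises RA, rose by 4.37 ± 0.20 (SE) on average over the 8 comparisons (adjusted p = 1.3e-27). Pml itself did not separate the backgrounds: the 4 untreated Pml null arrays at 6 h had a mean of 9.27 ± 0.19 (SD) and the 4 wild type arrays 9.32 ± 0.09, and the untreated difference over both times was 0.04 ± 0.13 (SE; adjusted p = 0.92). Where the Pml probes lie relative to the deletion is not given in the sources used here, so this probe set does not check the label.

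The plot of the 10 genes on every array shows the raw pattern. Within each leukaemia and time, all RA arrays were above all untreated arrays in 79 of the 80 pairs of a gene and a comparison. The exception was Adssl1 in the viral Pml null leukaemia at 6 h, where 1 untreated array stood among the RA arrays. Since the rule used these contrasts, nothing is read from that count. In bulk RNA, fewer cells of a type and less RNA per cell cannot be told apart.

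**Figure D1:**
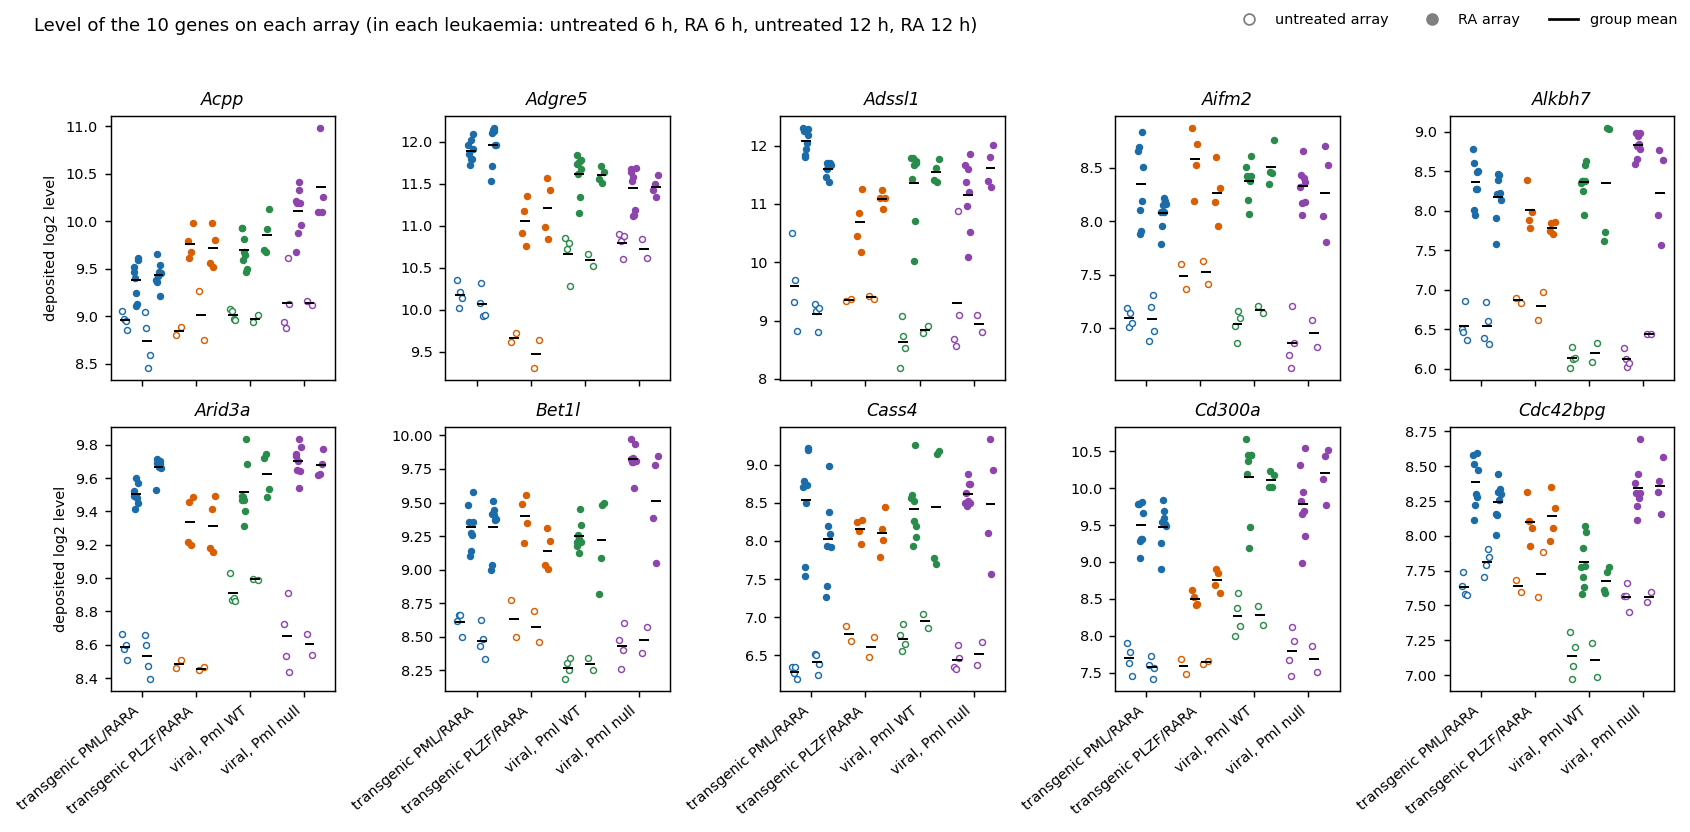
Deposited log2 level of each of the 10 genes on the 72 arrays, with untreated arrays as open and RA arrays as filled points, black lines for group means, and colours for the 4 kinds of leukaemia (left to right in each: untreated 6 h, RA 6 h, untreated 12 h, RA 12 h). Filled points sit above the open points of the same time in every panel except for Adssl1 in the viral Pml null leukaemia at 6 h, where an untreated array at 10.87 overlaps the RA arrays.

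The RA effects differed in size among the 10 genes. RA effect means the log2 level with RA minus the untreated level at the same time, from 1 fit per model with a batch term, and errors are standard errors. Adssl1 had the highest mean of the 8 effects, 2.26, and Cdc42bpg the lowest, 0.62. In between lay Alkbh7 at 1.81, Cass4 and Cd300a at 1.76 each, Adgre5 at 1.26, Aifm2 at 1.20, Bet1l at 0.91, Arid3a at 0.89 and Acpp at 0.82. The median over the 10 genes was 1.52 in transgenic PML/RARA at 6 h, against 0.02 over all genes. All 10 genes were above 0 in all 8 comparisons, as the rule required.

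The share of all genes called higher with RA gives the background for the calls of the 10. It was 5.81% at 6 h and 9.88% at 12 h in transgenic PML/RARA, and 1.45% and 2.46% in transgenic PLZF/RARA. In the viral leukaemias it was 5.44% at 6 h and 3.03% at 12 h with wild type Pml, and 4.97% and 4.22% in Pml null. Both PLZF/RARA comparisons and both viral 12 h comparisons rest on 2 untreated and 4 RA arrays each. The gene nearest the limit was Cdc42bpg, whose largest adjusted p of the 8 was 0.044, in PLZF/RARA at 12 h. Cass4 followed at 0.027 and Aifm2 at 0.023. Just outside lay Dennd2d at 0.051, Irak2 at 0.053 and Pxn at 0.055, all in PLZF/RARA and all with 8 effects above 0. Without the untreated PLZF/RARA array 2 at 6 h, 5 of the 10 genes were called in all 8 comparisons. Without the untreated PLZF/RARA array 1 at 12 h, 6 were.

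**Figure D2:**
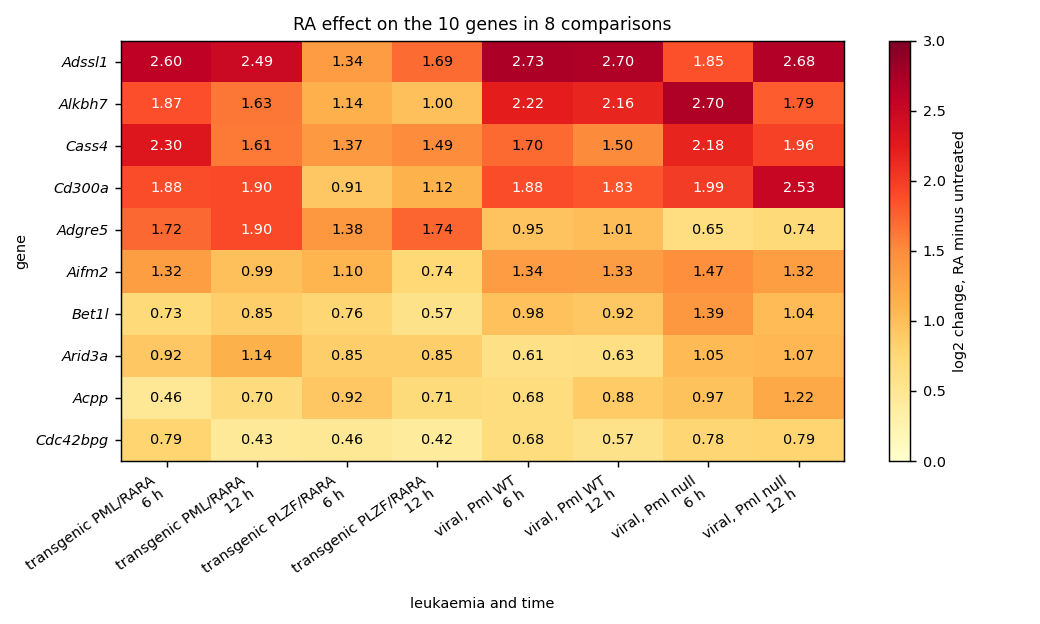
RA effect (log2 change, RA minus untreated) of the 10 genes, ordered by their mean, in the 4 kinds of leukaemia at 6 h and 12 h. Adssl1 ranges from 1.34 in PLZF/RARA at 6 h to 2.73 in the viral wild type leukaemia at 6 h, and Cdc42bpg from 0.42 to 0.79.

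The genes fall into several roles. Adssl1, Acpp, Aifm2 and Alkbh7 encode enzymes, Adgre5 and Cd300a cell surface receptors, Cass4 and Cdc42bpg an adhesion scaffold and a kinase, Bet1l a protein of Golgi membrane traffic, and Arid3a a DNA-binding protein. Each gene has 1 probe set on the array. All 10 were found in the RefSeq table, whose assembly is GRCm38.p6. That table places Adssl1 on chromosome 12, Alkbh7 on 17, Cd300a on 11, Adgre5 on 8, Arid3a and Aifm2 on 10, Cass4 on 2, Acpp on 9, Bet1l on 7 and Cdc42bpg on 19.

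Promoter sequences are printed for Adssl1, Alkbh7 and Cd300a, because these are the 3 genes whose RA effect differed between PML/RARA and PLZF/RARA leukaemias. They run from 250 bases before to 50 bases after the start of the promoter entry, 5′ to 3′ on the gene's strand, from RefSeq on GRCm38.p6. Capitals mark 6-base half-sites of the retinoic acid receptor on either strand, namely AGGTCA, its variant AGTTCA, the form GGGTCA and also the form GGTTCA, as a script found them. Adssl1 lies at chr12:112619797-112620096, Alkbh7 at chr17:56997089-56997388 and Cd300a at chr11:114889791-114890090, all on the plus strand. The RefSeq table starts the Cd300a gene at 114889152, so its window lies inside the gene and its positions count from another start.
Adssl1: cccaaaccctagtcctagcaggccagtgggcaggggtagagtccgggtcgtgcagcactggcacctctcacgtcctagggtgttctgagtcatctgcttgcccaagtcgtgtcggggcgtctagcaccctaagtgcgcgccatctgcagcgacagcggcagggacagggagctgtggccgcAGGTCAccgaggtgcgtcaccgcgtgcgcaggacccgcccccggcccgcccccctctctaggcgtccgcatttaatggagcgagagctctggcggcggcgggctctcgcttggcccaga
Alkbh7: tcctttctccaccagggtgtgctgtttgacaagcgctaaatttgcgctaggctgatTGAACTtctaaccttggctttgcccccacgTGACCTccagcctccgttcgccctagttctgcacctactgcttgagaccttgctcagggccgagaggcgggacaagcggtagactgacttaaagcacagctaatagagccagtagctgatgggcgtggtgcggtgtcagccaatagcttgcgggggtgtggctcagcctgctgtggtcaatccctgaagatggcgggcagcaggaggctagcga
Cd300a: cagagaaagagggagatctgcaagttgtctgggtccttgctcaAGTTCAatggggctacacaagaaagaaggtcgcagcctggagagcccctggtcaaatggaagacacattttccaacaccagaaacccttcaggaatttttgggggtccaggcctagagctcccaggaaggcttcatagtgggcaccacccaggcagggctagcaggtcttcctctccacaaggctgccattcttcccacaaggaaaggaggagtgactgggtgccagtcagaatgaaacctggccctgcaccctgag
Adssl1 holds AGGTCA once, from -69 to -64 relative to the start. Alkbh7 holds AGTTCA from -194 to -189 and AGGTCA from -164 to -159, both on the minus strand, and Cd300a holds AGTTCA from -207 to -202.

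Of the 10 genes, 7 have a promoter entry, and 5 of these 7 hold at least 1 half-site, against 43.7% of all 32851 promoters of the same length. Beside the 3 above, these are Aifm2, with AGGTCA from -212 to -207 and from -34 to -29, and Cass4, with GGTTCA from -231 to -226 and GGGTCA on the minus strand from -160 to -155. Acpp and Bet1l hold none in this window, and Adgre5, Arid3a and Cdc42bpg have no entry. The windows of Aifm2 and Bet1l, like that of Cd300a, lie inside the gene as the RefSeq table places it. AGGTCA alone was in 3 of the 7 and in 16.3% of all promoters. Direct repeats of the half-sites with a spacer of 1, 2 or 5 bases were in 0 of the 7, against 0.222%, 0.268% and 0.0974% of all promoters. A match is a description of letters in this window.

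Adssl1, which makes adenylosuccinate from inosine monophosphate on the way to adenosine monophosphate, had the largest mean RA effect of the 10. In transgenic PML/RARA the untreated arrays read 10.50, 9.33, 9.70 and 8.83 at 6 h, and the 8 RA arrays had a lowest 11.81, a median 12.11 and a highest 12.30. At 12 h the untreated arrays read 9.29, 9.16, 8.80 and 9.21 and the RA arrays had a lowest 11.38, a median 11.66 and a highest 11.71. The groups stood apart by more than 1 log2 unit at both times. In PLZF/RARA the untreated arrays were 9.33 and 9.36 at 6 h and the RA arrays 10.45, 10.85, 10.18 and 11.26. At 12 h they were 9.42 and 9.38 untreated and 11.10, 11.24, 10.91 and 11.10 with RA. Untreated levels of the 2 fusions thus overlapped at 6 h and not at 12 h, where PLZF/RARA was higher, and every PLZF/RARA array with RA was below every PML/RARA array with RA. The RA effects were 2.60 ± 0.17 and 2.49 ± 0.17 in PML/RARA against 1.34 ± 0.23 and 1.69 ± 0.23 in PLZF/RARA.

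In the viral leukaemias Adssl1 varied more between arrays. With wild type Pml the untreated arrays were 8.18, 9.08, 8.73 and 8.53 at 6 h, and the 8 RA arrays had a lowest 10.02, a median 11.69 and a highest 11.79. RA arrays 5 and 6 of that group, at 10.02 and 10.70, stood apart from the other 6, at 11.44 or above. With Pml null the untreated arrays at 6 h were 8.69, 8.56, 10.87 and 9.10, and the RA arrays had a lowest 10.08, a median 11.30 and a highest 11.86. Untreated array 3, at 10.87, was higher than 2 of the 8 RA arrays, and it was the highest untreated array of its group for 7 of the 10 genes. Its Cyp26a1 level, 5.48, was near those of the other 3 untreated arrays, 5.24 to 5.36. That array is in batch 3, where the RA effect was 1.31, against 2.40 in batch 4. At 12 h the untreated arrays were 8.78 and 8.91 with wild type Pml and 9.09 and 8.80 with Pml null, and the RA arrays 11.40, 11.61, 11.39 and 11.76 and 11.39, 11.81, 11.29 and 12.01.

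Cd300a, an inhibitory receptor of myeloid cells with immunoreceptor tyrosine-based inhibitory motifs, showed the same split between the fusions. Untreated PML/RARA arrays were 7.90, 7.64, 7.78 and 7.46 at 6 h and 7.61, 7.73, 7.41 and 7.56 at 12 h. Untreated PLZF/RARA arrays lay in the same range, at 7.69 and 7.48 and at 7.62 and 7.66. With RA, PML/RARA had a lowest 9.05, a median 9.49 and a highest 9.81 at 6 h and a lowest 8.90, a median 9.53 and a highest 9.84 at 12 h. PLZF/RARA with RA reached only 8.62, 8.53, 8.41 and 8.43 at 6 h and 8.69, 8.91, 8.86 and 8.58 at 12 h. At 6 h no array of the 2 fusions overlapped with RA, and at 12 h only the highest PLZF/RARA array, 8.91, passed the lowest PML/RARA array, 8.90.

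In the viral leukaemias the RA arrays were all above the untreated arrays too. With wild type Pml the levels were 8.0, 8.38, 8.57 and 8.13 untreated at 6 h, and with RA a lowest 9.18, a median 10.40 and a highest 10.66. With Pml null they were 7.68, 7.46, 8.12 and 7.93 untreated at 6 h, and with RA a lowest 8.98, a median 9.76 and a highest 10.55. At 12 h the untreated arrays were 8.41 and 8.15 and the RA arrays 10.02, 10.23, 10.02 and 10.17 with wild type Pml. In Pml null at 12 h they were 7.86 and 7.51 untreated and 10.12, 10.44, 9.77 and 10.51 with RA, which gave the largest RA effect of this gene, 2.53 ± 0.34. The same RA arrays were low as for Adssl1: arrays 5 and 6 with wild type Pml, at 9.18 and 9.47, and array 4 with Pml null, at 8.98. Cyp26a1 was also lowest on these arrays in their groups, at 8.52, 9.08 and 9.25, where the other RA arrays of both groups had 9.90 or above. These arrays were singled out after their values were seen.

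Alkbh7, a mitochondrial member of the AlkB dioxygenase family, lay between 6.01 and 6.97 on all untreated arrays. In PML/RARA the untreated arrays were 6.50, 6.46, 6.86 and 6.37 at 6 h and 6.39, 6.84, 6.61 and 6.31 at 12 h. The RA arrays had a lowest 7.94, a median 8.39 and a highest 8.79 at 6 h and a lowest 7.58, a median 8.22 and a highest 8.47 at 12 h. In PLZF/RARA the untreated arrays were 6.90 and 6.84 and 6.62 and 6.97, and the RA arrays 8.38, 7.89, 7.78 and 7.99 at 6 h and 7.75, 7.84, 7.71 and 7.86 at 12 h. The fusions overlapped at both times, with RA and without.

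The RA effects of Alkbh7 were 1.79 to 2.70 in the 4 viral comparisons and 1.00 to 1.87 in the 4 transgenic ones. Untreated viral arrays at 6 h were 6.01, 6.28, 6.13 and 6.13 with wild type Pml and 6.26, 6.13, 6.02 and 6.08 with Pml null. With RA they had a lowest 7.95, a median 8.37 and a highest 8.63 and a lowest 8.59, a median 8.83 and a highest 8.99, respectively. The RA effect was 2.70 ± 0.21 in Pml null at 6 h, 6.52-fold. At 12 h the RA arrays split: with wild type Pml they were 7.61, 7.73, 9.05 and 9.04, and with Pml null 7.95, 8.77, 7.56 and 8.64. Cass4 split on the same arrays, at 7.77, 7.70, 9.13 and 9.18 with wild type Pml and 8.10, 9.33, 7.56 and 8.93 with Pml null, while Adssl1 had 11.29 to 12.01 on the same 8 arrays. All are in batch 3, and the split was noticed after the values were seen.

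Cass4 is a Cas family scaffold of integrin adhesion sites. Its untreated levels were 6.19 to 6.35 at 6 h and 6.25 to 6.52 at 12 h in PML/RARA, and its RA levels 7.54 to 9.21 at 6 h and 7.27 to 8.98 at 12 h. In PLZF/RARA they were 6.68 to 6.88 at 6 h and 6.48 to 6.74 at 12 h untreated and 7.95 to 8.27 at 6 h and 7.79 to 8.45 at 12 h with RA. The viral arrays ran from 6.56 to 6.91 at 6 h and 6.85 to 7.04 at 12 h untreated with wild type Pml, and from 6.32 to 6.64 at 6 h and 6.37 to 6.68 at 12 h with Pml null. With RA at 6 h they ran from 7.94 to 9.25 and from 8.45 to 8.87. Its RA effect was largest in PML/RARA at 6 h, 2.30 ± 0.25, and smallest in PLZF/RARA at 6 h, 1.37 ± 0.34. The standard errors of Cass4, 0.24 to 0.36, were larger than those of most of the other 9 genes.

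Cdc42bpg encodes MRCK gamma, a kinase that acts downstream of the small GTPase Cdc42. It had the smallest RA effects of the 10 genes on average. Untreated levels were 7.58 to 7.74 at 6 h and 7.70 to 7.90 at 12 h in PML/RARA and 7.60 to 7.68 at 6 h and 7.56 to 7.89 at 12 h in PLZF/RARA. With RA they were 8.12 to 8.59 at 6 h and 8.01 to 8.45 at 12 h in PML/RARA and 7.93 to 8.31 at 6 h and 7.96 to 8.35 at 12 h in PLZF/RARA. In the viral model the wild type arrays were lower than the Pml null arrays in both states: 6.97 to 7.31 at 6 h and 6.98 to 7.23 at 12 h against 7.45 to 7.66 at 6 h and 7.53 to 7.60 at 12 h untreated, and 7.58 to 8.07 at 6 h and 7.59 to 7.77 at 12 h against 8.11 to 8.69 at 6 h and 8.16 to 8.57 at 12 h with RA. Wild type arrays with RA thus overlapped the untreated Pml null arrays.

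Adgre5 encodes CD97, an adhesion G protein-coupled receptor of leukocytes. Untreated PML/RARA arrays were 10.35, 10.02, 10.21 and 10.14 at 6 h and 10.08, 10.31, 9.93 and 9.93 at 12 h, and with RA they had a lowest 11.73, a median 11.88 and a highest 12.09 and a lowest 11.53, a median 12.03 and a highest 12.16. Untreated PLZF/RARA arrays were lower, at 9.61 and 9.72 and at 9.30 and 9.63, and their RA arrays were 10.91, 11.18, 10.75 and 11.36 at 6 h and 10.99, 11.56, 10.84 and 11.42 at 12 h. PLZF/RARA arrays were thus below all PML/RARA arrays of the same treatment and time, except that the highest RA array at 12 h, 11.56, passed the lowest of PML/RARA, 11.53.

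In the viral model Adgre5 had smaller RA effects. Untreated arrays at 6 h were 10.85, 10.72, 10.79 and 10.28 with wild type Pml and 10.90, 10.81, 10.60 and 10.87 with Pml null. With RA they had a lowest 11.15, a median 11.70 and a highest 11.84, and a lowest 11.11, a median 11.55 and a highest 11.68. At 12 h the untreated arrays were 10.66 and 10.51 and 10.84 and 10.62, and the RA arrays 11.55, 11.71, 11.51 and 11.63 and 11.42, 11.50, 11.34 and 11.60. The estimated RA effects were 0.65 to 1.01 in the 4 viral comparisons and 1.38 to 1.90 in the 4 transgenic ones, so the estimates did not overlap. Their 95% intervals did in part, such as 0.68 to 1.35 in viral wild type at 12 h and 1.02 to 1.74 in PLZF/RARA at 6 h. These sets also differ in fusion and Pml background.

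Arid3a, the AT-rich DNA-binding protein also known as Bright, varied least between arrays of a group. Untreated PML/RARA arrays were 8.66, 8.57, 8.60 and 8.51 at 6 h and 8.66, 8.60, 8.47 and 8.39 at 12 h, and with RA they had a lowest 9.41, a median 9.49 and a highest 9.60 and a lowest 9.53, a median 9.68 and a highest 9.71. PLZF/RARA arrays were 8.46 and 8.51 and 8.45 and 8.46 untreated, and 9.22, 9.45, 9.20 and 9.48 and 9.18, 9.41, 9.15 and 9.49 with RA. In the viral model the untreated wild type arrays were 9.03, 8.87, 8.88 and 8.86 at 6 h and the Pml null arrays 8.73, 8.53, 8.91 and 8.44. With RA they overlapped, a lowest 9.31, a median 9.48 and a highest 9.83 with wild type Pml and a lowest 9.54, a median 9.72 and a highest 9.83 with Pml null. At 12 h the untreated arrays were 8.99 and 8.99 and 8.66 and 8.54, and the RA arrays 9.72, 9.75, 9.49 and 9.53 and 9.62, 9.63, 9.68 and 9.78. Untreated wild type arrays were all above the Pml null arrays at 12 h, and at 6 h Pml null array 3, at 8.91, passed 3 of the 4 wild type arrays. The wild type RA effects were smaller, 0.61 ± 0.08 and 0.63 ± 0.12 against 1.05 ± 0.08 and 1.07 ± 0.12.

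Aifm2 encodes the ferroptosis suppressor FSP1, which reduces coenzyme Q at the plasma membrane. Untreated arrays were 7.01 to 7.18 at 6 h and 6.88 to 7.31 at 12 h in PML/RARA and 7.36 to 7.60 at 6 h and 7.41 to 7.63 at 12 h in PLZF/RARA, and every untreated PLZF/RARA array was above every untreated PML/RARA array. With RA the 2 fusions overlapped, at 7.88 to 8.84 at 6 h and 7.79 to 8.22 at 12 h and at 8.19 to 8.87 at 6 h and 7.95 to 8.60 at 12 h. Viral arrays were 6.86 to 7.16 at 6 h and 7.14 to 7.21 at 12 h untreated with wild type Pml and 8.07 to 8.61 at 6 h and 8.35 to 8.76 at 12 h with RA. With Pml null they were 6.62 to 7.21 at 6 h and 6.82 to 7.08 at 12 h, and 8.06 to 8.66 at 6 h and 7.80 to 8.70 at 12 h with RA. The 8 RA effects ran from 0.74 ± 0.20 in PLZF/RARA at 12 h to 1.47 ± 0.13 in viral Pml null at 6 h.

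Acpp encodes prostatic acid phosphatase, which also converts adenosine monophosphate to adenosine at the cell surface. Over both times, its untreated levels overlapped between the 4 leukaemias, 8.86 to 9.05 at 6 h and 8.45 to 9.04 at 12 h in PML/RARA, 8.80 to 8.88 at 6 h and 8.75 to 9.26 at 12 h in PLZF/RARA, 8.96 to 9.07 at 6 h and 8.93 to 9.01 at 12 h in viral wild type and 8.88 to 9.61 at 6 h and 9.12 to 9.16 at 12 h in viral Pml null. With RA they were 9.10 to 9.61 at 6 h and 9.22 to 9.65 at 12 h in PML/RARA and 9.62 to 9.98 at 6 h and 9.52 to 9.98 at 12 h in PLZF/RARA. In the viral leukaemias with RA they were 9.47 to 9.93 at 6 h and 9.67 to 10.12 at 12 h with wild type Pml and 9.68 to 10.41 at 6 h and 10.10 to 10.98 at 12 h with Pml null. It was the only gene of the 10 whose average RA effect was lower with PML/RARA than with PLZF/RARA, a difference of -0.24 ± 0.14 that was not called (adjusted p = 0.35).

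Bet1l encodes GS15, a SNARE of traffic within the Golgi. Untreated arrays were 8.50 to 8.66 at 6 h and 8.34 to 8.62 at 12 h in PML/RARA, 8.50 to 8.78 at 6 h and 8.46 to 8.69 at 12 h in PLZF/RARA, 8.18 to 8.34 at 6 h and 8.25 to 8.34 at 12 h in viral wild type and 8.26 to 8.60 at 6 h and 8.38 to 8.57 at 12 h in viral Pml null. RA arrays were 9.10 to 9.58 at 6 h and 8.99 to 9.51 at 12 h in PML/RARA and 9.20 to 9.55 at 6 h and 9.01 to 9.31 at 12 h in PLZF/RARA. In the viral leukaemias with RA they were 9.12 to 9.45 at 6 h and 8.82 to 9.50 at 12 h with wild type Pml and 9.61 to 9.97 at 6 h and 9.05 to 9.85 at 12 h with Pml null, and at 6 h every Pml null array was above every wild type array. The RA effect in Pml null at 6 h, 1.39 ± 0.11, was the largest of its 8.

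Ordered by group mean within a model, neighbouring groups mostly overlapped. For each of the 10 genes, 6 or 7 of the 7 steps in at least 1 model joined groups whose array ranges overlapped. The step from the highest untreated to the lowest RA group was free of overlap for 8 genes in each model. The exceptions were Acpp and Adssl1 in the transgenic and Adssl1 and Cdc42bpg in the viral model. Since the genes were chosen for their rise with RA, nothing is read from that count. The share of all genes free of overlap at this step was not worked out. Adssl1 in the transgenic model was the most graded, with 3 of 7 steps overlapping.

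The RA effects differed between the PML/RARA and PLZF/RARA leukaemias for 3 of the 10 genes. Adssl1 rose more in PML/RARA than in PLZF/RARA by 1.03 ± 0.20, averaged over both times, a 2.04-fold larger response (95% interval 0.62 to 1.45, adjusted p = 0.0012 by limma). The difference was 0.87 ± 0.15 for Cd300a (0.56 to 1.19, adjusted p = 0.00031) and 0.68 ± 0.18 for Alkbh7 (0.32 to 1.04, adjusted p = 0.014). Of all genes, 3.35% were called in this direction and 4.07% in the other. The remaining 7 genes were not called, with estimates from -0.24 for Acpp to 0.52 for Cass4, whose interval was -0.09 to 1.13.

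These differences, and those between Pml backgrounds, models and times below, are made of the RA effects that chose the genes. Their adjusted p-values therefore describe selected values and are not independent evidence. PLZF/RARA had 4 untreated and 8 RA arrays, all in batch 1. Alkbh7 was not called without the untreated PLZF/RARA array 2 at 12 h (0.59, adjusted p = 0.090) or in batch 1 alone (0.57, adjusted p = 0.071). Erythroid marker levels moved with the fusion. The mean log2 level of 6 of these (Alas2, Klf1, Slc4a1, Epb42, Hemgn and Epor) was 7.69 to 10.19 on PML/RARA arrays and 6.07 to 6.76 on PLZF/RARA arrays. With RA, all 6 were called higher in PML/RARA at 12 h and 2 of the 6 at 6 h, and 0 of the 6 in PLZF/RARA. T and NK cell markers also lay apart, at 7.22 to 7.70 with PML/RARA and 6.54 to 7.03 with PLZF/RARA. On untreated arrays, promyelocyte and progenitor markers were 12.09 to 12.36 with PML/RARA and 11.70 to 11.93 with PLZF/RARA. Monocyte and macrophage markers were 8.41 to 8.65 and 8.20 to 8.33. Those of eosinophils, basophils and mast cells went the other way on untreated arrays. They were 8.17 to 9.14 with PML/RARA and 9.19 to 9.42 with PLZF/RARA. The part of these markers in the result was not tested.

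Loss of Pml by label was set against wild type Pml in the viral model. Arid3a was called, with a smaller RA effect in wild type than in Pml null (wild type minus null -0.44 ± 0.10, interval -0.65 to -0.24, adjusted p = 0.018 by limma), where 0.381% of all genes were called higher in wild type and 0.752% lower. The call was lost without 1 of 3 untreated 12 h arrays: wild type array 1 (-0.44, adjusted p = 0.066), wild type array 2 (-0.45, adjusted p = 0.064) or Pml null array 2 (-0.41, adjusted p = 0.11). It was also lost in batch 3 alone (-0.39, adjusted p = 0.50). The other 9 were not called. Their intervals still allow sizeable differences: -0.42 to 1.31 for Adssl1, -1.0 to 0.19 for Cd300a, -1.10 to 0.17 for Cass4 and -0.57 to 0.46 for Alkbh7. The narrowest of the 9 was -0.39 to 0.06 for Cdc42bpg.

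Mature neutrophil markers moved with the Pml background. The mean log2 level of 10 of these (among them Camp, Ltf, Ngp and Cxcr2) was 11.43 to 12.57 on the viral wild type arrays and 9.30 to 10.76 on the Pml null arrays, untreated and RA arrays together. Monocyte and macrophage markers were 8.63 to 9.13 on untreated wild type and 7.75 to 8.23 on untreated Pml null arrays, and overlapped with RA. The part of both lists in the result was not tested.

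Between the models, the viral wild type leukaemia was set against transgenic PML/RARA, both with the same fusion and wild type Pml. The RA effect of Adgre5 was smaller in the viral leukaemia (viral minus transgenic -0.83 ± 0.14, interval -1.10 to -0.55, adjusted p = 4.7e-05 by limma). That of Arid3a was smaller too (-0.41 ± 0.08, interval -0.58 to -0.25, adjusted p = 0.00058). Of all genes, 2.48% were called lower in the viral model and 3.01% higher. The untreated group means of both genes were higher in the viral leukaemia, but the models share no batch, so levels were not tested between them. The other 8 genes were not called. Cdc42bpg differed by 0.01 ± 0.10 (interval -0.19 to 0.21) and Cd300a by -0.03 ± 0.22 (-0.47 to 0.41), and Adssl1 had an interval of -0.46 to 0.79.

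Markers of other cell types moved with the model too. Erythroid markers were 7.69 to 10.19 on transgenic PML/RARA arrays and 6.13 to 7.16 on viral wild type arrays, and with RA 0 of the 6 were called higher in the viral wild type leukaemia at either time. T and NK cell markers were 7.22 to 7.70 and 6.46 to 6.95. Those of eosinophils, basophils and mast cells were 8.17 to 9.14 and 7.37 to 8.13 on untreated arrays. The models share no batch, and the part of these markers in the result was not tested.

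**Figure D3:**
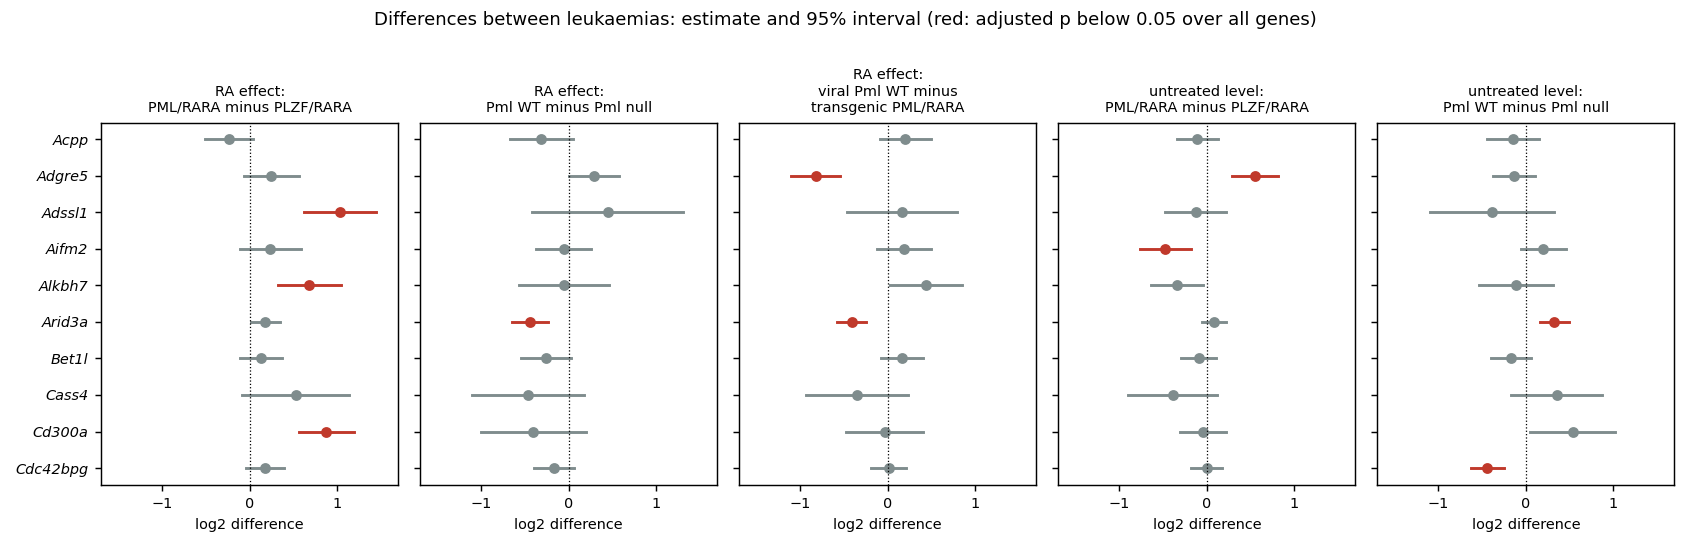
Differences in RA effect between fusion proteins, Pml backgrounds and models, and differences in untreated level between fusions and Pml backgrounds, for the 10 genes on the log2 scale, with 95% intervals and red for an adjusted p below 0.05 over all genes. Adssl1, Alkbh7 and Cd300a are red in the first panel, Arid3a in the second and Adgre5 and Arid3a in the third.

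The RA effects at 6 h and 12 h were set against each other within each model. In the transgenic model 0 of the 10 genes were called for a change averaged over both fusions, 0 at an unadjusted p below 0.05, where 0.286% of all genes were called. In the viral model 0 of the 10 were called, against 0% of all genes, and 0 had an unadjusted p below 0.05, against 4.41% of all genes. The changes averaged over a model ran from -0.34 for Aifm2 to 0.27 for Adgre5 in the transgenic model. In the viral model they ran from -0.49 for Alkbh7 (interval -1.0 to 0.02) to 0.40 for Adssl1 (interval -0.47 to 1.26). Within single leukaemias, 2 of the 10 genes in PML/RARA and 1 in Pml null had an unadjusted p below 0.05, against 8.14% and 6.31% of all genes. In PLZF/RARA and in viral wild type it was 0 of the 10, against 12.0% and 1.49% of all genes. Cdc42bpg in PML/RARA had the smallest adjusted p, with effects of 0.79 ± 0.09 and 0.43 ± 0.09 (-0.36 ± 0.12, adjusted p = 0.3). Arid3a in PML/RARA differed by 0.21 ± 0.10 (adjusted p = 0.55). Alkbh7 in Pml null had the lowest estimate, from 2.70 ± 0.21 to 1.79 ± 0.29 (-0.91 ± 0.36, adjusted p = 0.64), and Adssl1 in Pml null the highest (0.83 ± 0.60, interval -0.40 to 2.05). Cass4 in PML/RARA differed by -0.69 ± 0.35 (adjusted p = 0.63).

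**Figure D4:**
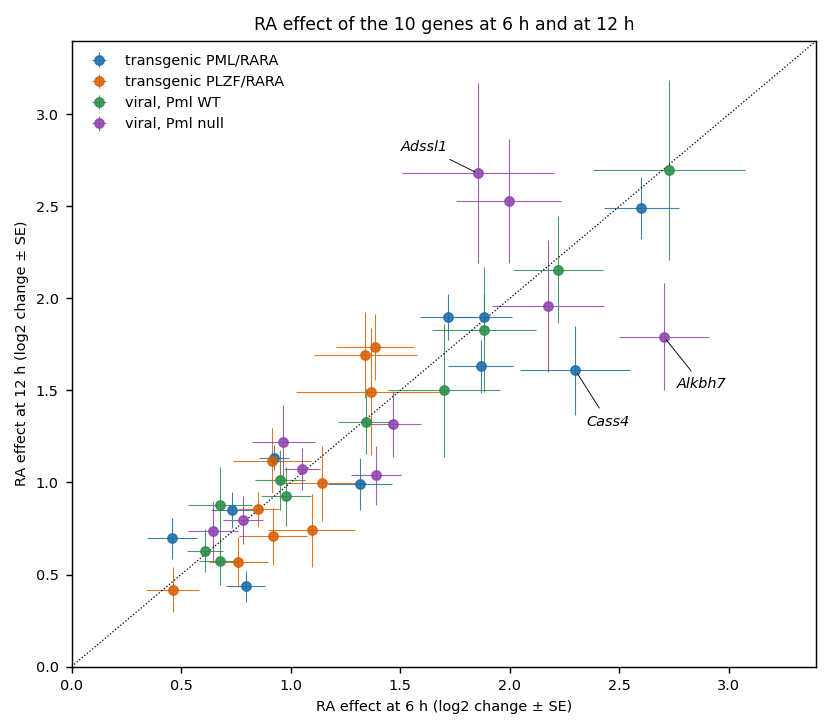
RA effect of the 10 genes at 6 h (horizontal axis) and 12 h (vertical axis), log2 change ± SE, coloured by leukaemia, with a dotted line of equality. The named points, Alkbh7 and Adssl1 in viral Pml null and Cass4 in PML/RARA, lie farther from the line than most.

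Before treatment, 4 of the 10 genes were called between leukaemias, 1 higher and 1 lower in each comparison. These counts are near the shares of all genes given here, so nothing particular to the 10 is read from them. Adgre5 was higher in untreated PML/RARA than in untreated PLZF/RARA by 0.55 ± 0.13 (adjusted p = 0.0013 by limma), where 13.1% of all genes were higher and 12.2% lower. Aifm2 was lower (PML/RARA minus PLZF/RARA -0.48 ± 0.14, adjusted p = 0.012). The Aifm2 call was lost without an untreated PLZF/RARA array, number 1 at 12 h (-0.42, adjusted p = 0.070) or number 1 at 6 h (-0.42, adjusted p = 0.078), and in batch 1 alone (-0.41, adjusted p = 0.052). Between the Pml backgrounds, Arid3a was higher in wild type by 0.32 ± 0.08 (adjusted p = 0.0032) and Cdc42bpg lower (-0.44 ± 0.09, adjusted p = 0.00039). Of all genes, 9.92% were higher and 10.9% lower in untreated wild type. In batch 3 alone Arid3a was not called (0.29, adjusted p = 0.087). The untreated arrays also entered the RA effects that chose the genes. The adjusted p-values of all 4 genes therefore describe selected values and are not independent evidence. For Arid3a, the untreated difference and the difference in RA effect share arrays and are not independent of each other.

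At 6 h, PML/RARA and both viral leukaemias were each spread over 2 batches, and RA minus untreated was above 0 for all 10 genes in each batch. The largest gap between batches was that of Adssl1 in viral Pml null, given above. For Cd300a the effect was 1.53 in batch 3 and 2.23 in batch 4 with wild type Pml, and 1.79 in batch 1 and 2.02 in batch 2 in PML/RARA. For Alkbh7 in PML/RARA it was 1.64 and 2.21. Adgre5 moved least, with 1.71 and 1.72 in PML/RARA and 0.95 and 0.95 in viral wild type.

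Known RA target genes were measured beside the 10. Of 23 on a list, 19 were measured, and 15 of these were called higher in the average RA effect, 0 lower, against 15.6% and 17.3% of all genes. Their median change was 0.37, against 0.01 over all genes and 1.23 over the 10. The strongest were Cyp26a1 at 4.37 ± 0.20, the hypermethylated-in-cancer repressor Hic1 at 2.31 ± 0.13, the circadian repressor Bhlhe40 at 1.83 ± 0.09, the retinaldehyde reductase Dhrs3 at 1.82 ± 0.09 and transglutaminase Tgm2 at 1.27 ± 0.10 (SE; largest adjusted p of the 5, 1.5e-16). Of these 5, only Cyp26a1 and Dhrs3 were called in all 8 comparisons. In PLZF/RARA, 5 of the 19 measured targets were called higher and 1 lower at 6 h, and 6 higher and 0 lower at 12 h. Each of the other comparisons had 7 to 11 of the 19 called higher and 0 lower.

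The relatives of the 10 genes were looked at to see how far the response was shared within a family or pathway. Of 114 measured relatives, 36 (31.6%) were called higher in the average RA effect, 31 (27.2%) lower and 47 were not called. Over all genes, 15.6% were called higher and 17.3% lower. Only 1, Gpx4, was called higher in all 8 comparisons. In the plot of relatives, 9 of the 10 genes lie above all of their listed relatives, and Acpp lies below Acp5. The 10 were chosen for their rise and the relatives were not.

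**Figure D5:**
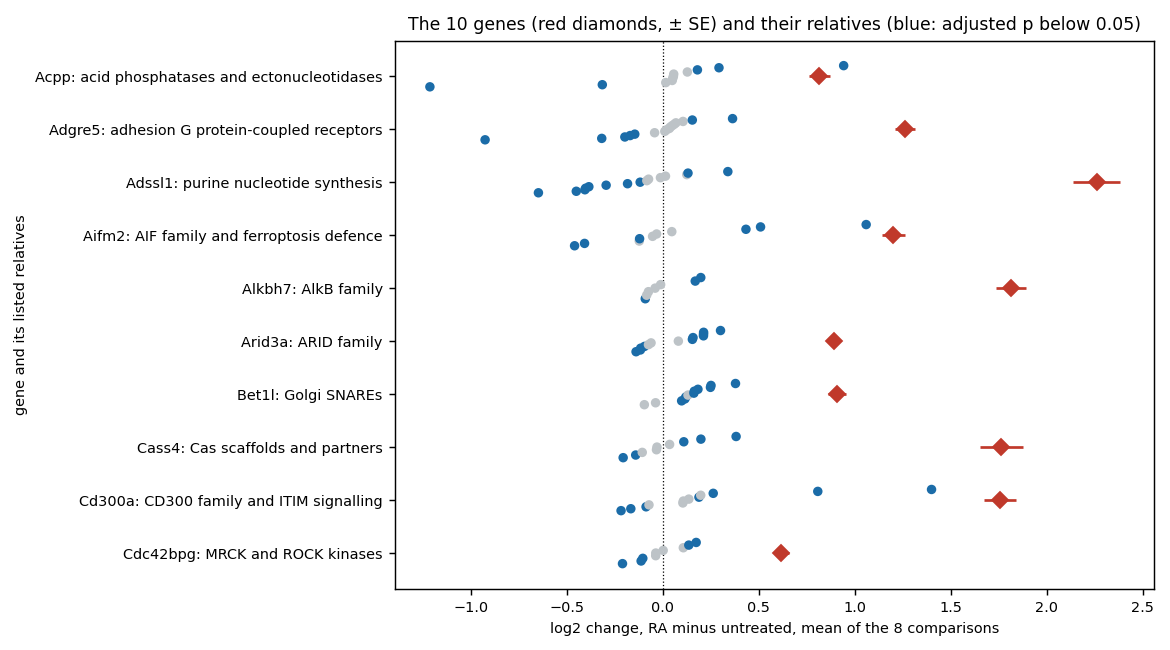
Average RA effect over the 8 comparisons (log2 change) for each of the 10 genes (red diamonds with SE) and for the listed relatives of each (dots, blue where the adjusted p was below 0.05). Most relatives lie within 0.5 of 0, with Nt5e at -1.21, Cd300lb at 1.40, Gpx4 at 1.06 and Acp5 at 0.94 among those farther out.

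In purine nucleotide synthesis, around Adssl1, 2 of 15 measured genes were called higher in the average and 8 lower, with a median of -0.12. In PLZF/RARA, 0 of the 15 were called at either time. Gart fell by 0.65 ± 0.07 and Ppat fell by 0.45 ± 0.07, both on the way to inosine monophosphate, and the AMP deaminase Ampd2 fell by 0.41 ± 0.04. Of the acid phosphatases and ectonucleotidases around Acpp, 3 of 11 rose and 2 fell. The ecto-5′-nucleotidase Nt5e fell by 1.21 ± 0.09, the lysosomal phosphatase Acp5 rose by 0.94 ± 0.10, and Acp6 fell by 0.32 ± 0.04. Nt5e is the other listed enzyme that makes adenosine from adenosine monophosphate outside the cell, and it moved opposite to Acpp in all 8 comparisons.

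Around Aifm2, 3 of 10 genes of the AIF family and of ferroptosis defence rose and 3 fell. Gpx4, the glutathione peroxidase that reduces lipid peroxides, rose by 1.06 ± 0.06. Acsl4, which loads polyunsaturated fatty acids into lipids, rose by 0.51 ± 0.04, and the mitochondrial dehydrogenase Dhodh fell by 0.46 ± 0.04. In the AlkB family, around Alkbh7, 2 of 7 rose and 1 fell, all by 0.20 or less: Alkbh3 by 0.20 ± 0.05 and Alkbh6 by 0.17 ± 0.05, with Fto at -0.09 ± 0.04.

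Among adhesion G protein-coupled receptors, 2 of 16 rose and 5 fell. Adgrg1 (GPR56) fell by 0.93 ± 0.09, Adgrf5 rose by 0.36 ± 0.09 and Adgrl4 fell by 0.32 ± 0.07. In the CD300 family with its inhibitory signalling partners, 4 of 12 rose and 3 fell. The activating receptor Cd300lb rose by 1.40 ± 0.12 and Cd300lf by 0.81 ± 0.08, above 0 in all 8 comparisons, and Cd300ld by 0.26 ± 0.10 with 4 of 8 above 0. Of the ARID family, 6 of 13 rose and 4 fell, led by the demethylases Kdm5b at 0.30 ± 0.05 and Kdm5a at 0.21 ± 0.05 and by Arid3b at 0.21 ± 0.04.

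Of the Golgi SNAREs around Bet1l, 9 of 12 were called higher in the average and 0 lower, with a median of 0.15. In single comparisons, 0 of the 12 were called in PLZF/RARA at either time or in the viral leukaemias at 12 h. Vamp4 rose by 0.38 ± 0.05, Sec22b by 0.25 ± 0.02 and the SNARE regulator Scfd1 by 0.25 ± 0.04, each above 0 in all 8 comparisons. Around Cass4, 3 of 9 rose and 2 fell, with the focal adhesion kinase relative Ptk2b at 0.38 ± 0.05, the adaptor Crk at 0.20 ± 0.04 and the kinase Fyn at -0.21 ± 0.08. Around Cdc42bpg, 2 of 9 rose and 3 fell. Limk1 fell by 0.21 ± 0.04, Cdc42bpa (MRCK alpha) rose by 0.17 ± 0.06 and Limk2 rose by 0.13 ± 0.04.

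The 5 genes outside the 10 with the most similar profile were found by correlation with the mean of the 10 over the 16 group means, centred within each model. They were Mafg (r = 0.986), Gpx4 (r = 0.986), Nin (r = 0.983), Cyp26a1 (r = 0.979) and Rilpl2 (r = 0.977). All 5 were among the 61 genes called in all 8 comparisons, with average RA effects of 1.19 for Mafg, 1.06 for Gpx4, 0.77 for Nin, 4.37 for Cyp26a1 and 1.53 for Rilpl2. Of the 10 themselves, Cass4 followed the mean of the other 9 most closely (r = 0.978) and Adgre5 least (r = 0.846). All group means share the arrays and the split into RA and untreated, so these values of r are descriptions.

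Cell type markers in the average RA effect give the setting of these changes. Of 6 promyelocyte and progenitor markers 2 rose and 4 fell. The proteases Prtn3 and Elane were at 1.02 ± 0.07 and 0.24 ± 0.05, and the progenitor genes Kit and Cd34 at -1.12 ± 0.11 and -0.82 ± 0.09. Of 10 mature neutrophil markers 5 rose and 1 fell, with Mmp9 at 0.96 ± 0.14, Itgam at 0.58 ± 0.07, Ngp at 0.37 ± 0.05 and Mmp8 at -0.45 ± 0.12. Monocyte and macrophage markers gave 2 higher and 1 lower of 8, erythroid markers 1 higher of 6 (Klf1 at 0.34 ± 0.09), B cell markers 0 of 7, and T and NK cell markers 2 lower of 8. Markers of eosinophils, basophils and mast cells gave 3 lower of 8, led by Cpa3 at -0.59 ± 0.13. The average hides differences between comparisons. The median change of the mature neutrophil markers was -0.23 in viral Pml null at 6 h and 1.09 at 12 h. These were the lowest and the highest of the 8 comparisons. The part of all these markers in the RA effects of the 10 genes was not tested.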

How the data were processed

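The deposited values are log2 expression levels from 72 one-colour arrays (35556 probe sets); RMA and the affy package were used, per the submitters' processing notes, with versions and any batch correction not given in the sources used here. They were used as the authors deposited them. The array count limits precision; array medians were 6.56 to 6.81, no arrays were identical, and residual SDs had a median over genes of 0.149 (transgenic) and 0.153 (viral).

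Probe sets with 1 symbol in the platform annotation (21789; 1621 have several and 12146 are not listed) were used, keeping the brightest per symbol, which gave 19938 genes; no gene was filtered out. limma 3.58.1 in R 4.3.3 was fitted per model, or to all arrays for the comparison of models and the average RA effect, with a coefficient per group and a batch term, then eBayes with two-sided tests and Benjamini-Hochberg adjustment over all genes; 0.05 was the threshold. Fits were tested on simulated data.

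The 10 genes, the gene lists (RA targets, 10 lists of relatives, 7 marker lists) and the comparisons were chosen with earlier results of these data known. Relatives named are up to 3 called genes per list, and 5 RA targets, with the largest average change, beside the 5 genes most correlated with the 10. Markers are means of log2 levels over a list. Some genes of these lists were not analysed here. The alternatives tried were no batch term, another quantile normalization, the mean of all probe sets of a symbol, a filter on dim genes, eBayes with trend and robust, pooled untreated times, 1 batch per model and leaving out each array.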

Additional observations from a re-analysis of the deposited data

Results flagged for a closer look

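Within groups of 4 or 8 arrays, 120 pairs of a group and a gene were searched for a single array far from the others, and 3 were found, where chance flags about 1 in 20. Arid3a was 9.53 on array 1 of transgenic PML/RARA with RA at 12 h, below the other 7 at 9.66 to 9.71. That array was the lowest of its group for 8 of the 10 genes. Cyp26a1 was 7.59 on that array and 7.54 on array 2, where the other 6 had 9.44 to 10.57. Arid3a was 9.03 on array 1 of untreated viral wild type leukaemia at 6 h, above the other 3 at 8.86 to 8.88. Bet1l was 9.61 on array 6 of viral Pml null with RA at 6 h, below the other 7 at 9.80 to 9.97.

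The RA effect differed between leukaemias, by limma, for these genes, which were chosen by their RA effects. Between the fusions (PML/RARA minus PLZF/RARA) the difference was 1.03 for Adssl1, 0.68 for Alkbh7 and 0.87 for Cd300a. Between the Pml backgrounds (wild type minus null) it was -0.44 for Arid3a. Between the models (viral wild type minus transgenic PML/RARA) it was -0.83 for Adgre5 and -0.41 for Arid3a.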

How the results depend on the processing

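No direction of a called difference among the 10 genes reversed under any alternative run. The largest batch alone holds fewer arrays. With it, 5 of the 10 genes were called higher in all 8 RA effects and 0 differed between the Pml backgrounds. Untreated, 1 differed between the fusions and 1 between the Pml backgrounds. Leaving out 1 array gave 5 to 10 genes called in all 8, 0 to 1 for the Pml backgrounds and 1 to 3 for the untreated fusions, as against 10, 1 and 2. It gave 2 to 3 for the fusions, 2 for the models, 0 for both changes over time and 59 to 70 of the relatives, as against 67. The smallest RA effect of Cdc42bpg, 0.42, was 0.26 without the untreated PLZF/RARA array 1 at 12 h. The causes were not tested. Over all genes, the largest batch alone gave 12 calls up and 30 down between the Pml backgrounds (76 and 150 otherwise), 333 and 217 between the models (601 and 495), and 4 and 0 for the transgenic change over time (40 and 17), which was 76 and 25 with the dim genes left out. No paired analysis was possible because the labels give every sample the same replicate number. Groups of 2 untreated arrays limit the PLZF/RARA and viral 12 h comparisons most.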

Other observations

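In transgenic PML/RARA with RA at 6 h, arrays 3 and 4 had Cyp26a1 levels of 6.48 and 6.12, where the other 6 RA arrays had 8.86 to 9.44 and the untreated arrays 4.84 to 5.29. Several of the 10 genes were low on the same arrays. Cass4 was 7.66 and 7.54 there, against 8.50 to 9.21 on the other 6. Alkbh7 was 8.01 and 7.94 against 8.27 to 8.79, and Adssl1 was 11.84 and 11.81 against 11.94 to 12.30. Arid3a did not share this order, as it was 9.41 on array 3, the lowest of the group, and 9.60 on array 4, the highest. All these RA levels stayed above the untreated levels of the same gene and time. These arrays were singled out after their values were seen.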
